A study of Mus musculus with 2 samples.

Results

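The genes described here encode the mitochondrial respiratory chain and ATP synthase. They were chosen by symbol: the Nduf, Sdh, Uqcr, Cox4 to Cox8 and Atp5 genes of the nucleus and the protein-coding genes of mitochondrial DNA, with at least 20 unique molecular identifiers (UMIs, tags that mark single captured RNA molecules) over both libraries. Of 32285 genes listed, 106 matched the names and 103 passed the minimum. The 103 comprised 80 nuclear subunits (36 of complex I, 4 of complex II, 8 of complex III, 15 of complex IV and 17 of complex V), 13 mitochondrially encoded subunits, 8 complex I assembly factors (Ndufaf1 to Ndufaf8), and Ndufa4 and its paralog Ndufa4l2, which are named after complex I but associate with complex IV. Just inside the minimum were Cox6b2 with 68 UMIs and Cox4i2 with 232 UMIs. Just outside were Cox7b2 with 2, Cox8b with 1 and Cox8c with 0 UMIs.

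The data were single-cell RNA libraries of subcutaneous mouse tumours. One library came from mice on a control diet (titled CT) and one from mice on a diet the series' design text calls -SG, which was read with the series title as free of serine and glycine and is called SG-free here. The sources used here do not give the tumour line, the strain and age of the mice, or how many mice a library holds. The protocol text speaks of human cardiac tissue, whereas the organism and tissue entries name mouse and subcutaneous tumour. With 1 library per diet a difference between diets has no replicate check and cannot be told apart from a difference between 2 tumours or 2 library preparations, so no test is given and every interval below covers counting error only.

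Oxidative phosphorylation passes electrons from NADH through complex I, or from succinate through complex II, to ubiquinone, then through complex III, cytochrome c and complex IV to oxygen. Complexes I, III and IV pump protons, and complex V uses the gradient to make ATP. Complex II is wholly nuclear-encoded and also serves the TCA cycle, whereas the other complexes mix nuclear subunits with subunits translated inside the mitochondrion from polycistronic transcripts of mitochondrial DNA. Serine and glycine feed the mitochondrial folate pathway, and tumour cells use the respiratory chain to a degree that varies with oxygen.

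After filters on depth, genes and mitochondrial share, 14159 control cells and 20312 SG-free cells remained. Cells were assigned to classes by marker panels, and 33 of 36 check markers outside the panels were highest in their own class in both libraries. The exceptions were Skap1, Klrd1 and Nkg7, which T and NK cells share. Cells with Hmga2 and Rhox5 UMIs and no other panel are called presumed tumour cells, since the labels do not name the tumour. They numbered 10144 and 12755, with medians of 13276.5 and 9585 UMIs per cell, so depth per cell moved with diet, and its part in the results was not tested. Monocytes and macrophages numbered 1521 and 1994 and T cells 399 and 1095; the other classes held 20 to 255 cells per library. Cells that passed more than 1 panel (2.78% and 4.01%) were left out, and 8.62% and 13.8% passed none. The libraries shared 79 cell barcodes after filters. Hmga2 or Rhox5 UMIs were found in 15.0% to 26.1% of T cells and macrophages, where their level was far lower (63.9 to 167 CPM, UMIs per 1000000 UMIs of the class) than in presumed tumour cells (2777 and 2718 CPM).

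In presumed tumour cells the respiratory chain as a whole was slightly lower under the SG-free diet. The 80 nuclear subunits together took 1.38% of UMIs in the control library and 1.30% in the SG-free library, and the 13 mitochondrial genes took 4.49% and 4.02%. Among the 78 nuclear subunits with at least 100 UMIs in these cells, 65 were below 0 on the log2 scale of the SG-free over the control level. Their median log2 ratio was -0.13 (interval over members -0.17 to -0.10), beside a median of 0.04 over all 13581 genes compared, of which 43.3% were below 0. A 1.2-fold difference, used throughout as the size that counts, was passed downward by 14 of the 78, beside 11.1% of all genes, and upward by 1, beside 17.3% of all genes. The remaining 63 lay within 1.2-fold, so many genes were lower by a small amount. The share of UMIs from cytosolic ribosomal protein genes, which affects every level in CPM, was also lower, at 20.0% against 21.7%. Leaving the mitochondrial and ribosomal protein genes out of the total put the median at -0.17. In cells of under 5000 UMIs it was -0.24 with 33 subunits 1.2-fold lower, and centring each gene on genes of similar span gave 23 lower.

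**Figure D1:**
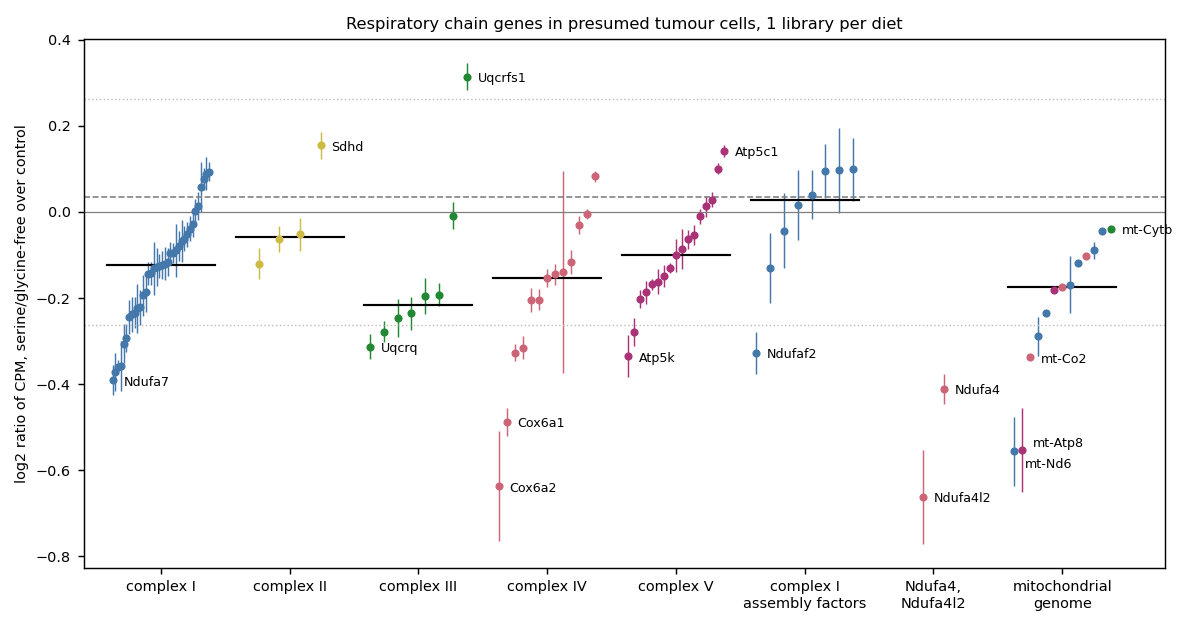
Each point is 1 respiratory chain gene in presumed tumour cells, plotted by complex (x) against the log2 ratio of its level in CPM, SG-free over control (y); colour gives the complex, also within the mitochondrial group, bars are 95% counting intervals and black lines are group medians. The dashed line is the median of all genes compared (0.04) and dotted lines mark 1.2-fold; most nuclear subunits and all 13 mitochondrial genes lie below 0, with Uqcrfs1 the 1 nuclear subunit above the upper dotted line.

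Complex I, which oxidises NADH, held 36 compared nuclear subunits with a median of -0.12. At least 1.2-fold lower were 6 of the 36, beside 11.1% of all genes, of which 43.3% were below 0. The accessory subunits surround the catalytic core. The 29 accessory subunits had a median of -0.13 with 27 below 0, whereas the 7 core subunits, which carry the flavin and iron-sulphur clusters or bind ubiquinone, had a median of 0.00 with 3 below 0. The difference between the 2 sets was not tested. All core subunits have transcripts of over 737 bp, from 870.5 bp (Ndufs7) to 2625.5 bp (Ndufs1), whereas many accessory subunits have shorter ones. The 2 sets thus also differ in transcript length, which is described below. Lowest was the accessory subunit Ndufa7, at 104 CPM in the control and 79.3 CPM in the SG-free library (log2 ratio -0.39, interval -0.43 to -0.36). Ndufs6, needed for late assembly of the NADH-oxidising module, stood at 65.1 and 50.3 CPM (-0.37). Highest were Ndufa8, at 242 and 258 CPM (0.09), and the core subunit Ndufs8, at 75.3 and 80.1 CPM (0.09). The 8 assembly factors lay on both sides of 0, with a median of 0.03 and a log2 ratio of -0.06 for their summed UMIs, and Ndufaf2 alone passed 1.2-fold, at 52.9 and 42.2 CPM (-0.33).

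Complex II, succinate dehydrogenase, stayed close to its control level, with a median of -0.06 and no subunit past 1.2-fold. Sdha, the flavoprotein that oxidises succinate, stood at 90.3 and 83.1 CPM (log2 ratio -0.12). Sdhb, the iron-sulphur subunit, stood at 124 and 119 CPM (-0.06), and the membrane anchor Sdhc at 76.8 and 74.1 CPM (-0.05). The other anchor, Sdhd, was higher, at 104 and 116 CPM (0.15, interval 0.12 to 0.19). In cells of under 5000 UMIs 2 signs turned, with Sdhd at -0.18 and Sdha at 0.035.

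Complex III, the cytochrome bc1 complex, had the lowest median of the 5 complexes, -0.21 over 8 nuclear subunits, and its members lay on both sides of 0. Uqcrq, a small membrane subunit, stood at 147 CPM in the control and 119 CPM in the SG-free library (-0.31), and the hinge protein Uqcrh at 215 and 177 CPM (-0.28). The Rieske iron-sulphur protein Uqcrfs1, which carries electrons to cytochrome c1 and is inserted last during assembly, went the other way, at 106 and 131 CPM (0.31, interval 0.28 to 0.35). It was the 1 nuclear subunit at least 1.2-fold higher. Uqcrc2, a core subunit with no redox group, stood at 113 and 112 CPM (-0.01).

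Complex IV, cytochrome c oxidase, had a median of -0.15 over 13 nuclear subunits, and 4 of them, beside 11.1% of all genes, were at least 1.2-fold lower. Both isoforms of subunit VIa were among them: Cox6a1, the isoform of most tissues, at 135 and 96.3 CPM (-0.49, interval -0.52 to -0.46), and Cox6a2, the heart and muscle isoform, at 9.04 and 5.81 CPM (-0.64, interval -0.77 to -0.51). The others were Cox5a, at 304 and 243 CPM (-0.33), and Cox5b, at 181 and 145 CPM (-0.32). Cox4i1, the main isoform of a subunit that joins early in assembly, differed by less than its counting error, at 778 and 775 CPM (-0.01, interval -0.02 to 0.01), and Cox8a differed by -0.03. Cox7a2l, a factor that joins complexes III and IV into supercomplexes, was at 616 and 653 CPM (0.08). Ndufa4, a subunit that sits on complex IV, was at 109 and 82.3 CPM (-0.41, interval -0.45 to -0.38), and its hypoxia-inducible paralog Ndufa4l2 at 12.7 and 8.01 CPM (-0.66, interval -0.77 to -0.55).

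Complex V, ATP synthase, had the median nearest 0 among complexes I, III, IV and V, -0.10 over 17 subunits. Atp5k, which helps ATP synthase form dimers, was at 52.2 and 41.4 CPM (-0.33), and Atp5g1, 1 of 3 genes for the c subunit of the rotor, at 122 and 101 CPM (-0.28). The other c-subunit genes differed less, with Atp5g2 at -0.17 and Atp5g3 at -0.05; the 3 genes encode the same mature protein. The gamma subunit of the central stalk, Atp5c1, was at 538 and 593 CPM (0.14), and the peripheral stalk subunit Atp5f1 at 593 and 636 CPM (0.10).

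All 13 mitochondrial genes were below 0 in presumed tumour cells, beside 43.3% of all genes, with a median log2 ratio of -0.18 (interval over members -0.34 to -0.09). They lie on 1 short genome and are cut from shared transcripts, so they are not independent of each other. The ratios ranged from -0.04 for mt-Cytb, the mitochondrial subunit of complex III, to -0.56 for mt-Nd6. The abundant complex IV gene mt-Co2 was at 6959 CPM in the control and 5508 CPM in the SG-free library (-0.34), whereas mt-Co1, its partner in the catalytic core, was at 4632 and 4318 CPM (-0.10) and mt-Co3 at 8917 and 7897 CPM (-0.18). At least 1.2-fold lower were 4 of the 13, beside 11.1% of all genes. Of these 4, mt-Nd6, mt-Atp8 and mt-Nd3 had low levels (22.0 and 14.9, 14.9 and 10.2, and 62.4 and 51.1 CPM). mt-Nd6 is the 1 member on the opposite strand, mt-Atp8 overlaps mt-Atp6 and mt-Nd4l overlaps mt-Nd4 in the annotation, so how reads were divided among them is uncertain. For every nuclear subunit UMI there were 3.25 mitochondrial member UMIs in the control and 3.09 in the SG-free library. Cells with over 20% mitochondrial UMIs had been removed, and without that limit the median was also -0.18. In cells of under 5000 UMIs it was -0.35. Without the presumed tumour cells at 500 CPM or more of 7 hypoxia genes, mt-Cytb stood at 0.01 and mt-Nd1 at 0.02, and in cells of under 5000 UMIs mt-Nd5 stood at 0.15.

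Monocytes and macrophages showed the nuclear difference at a similar size and the mitochondrial one less clearly. Of 76 nuclear subunits compared in them, 67 were below 0, beside 50.8% of all genes. The median of the subunits was -0.17 (interval -0.23 to -0.12) beside 0.00 over all genes. At least 1.2-fold lower were 22, beside 14.0% of all genes, and none was 1.2-fold higher, beside 14.4%. Ndufb6 stood at 61.1 and 43.9 CPM (-0.48), Uqcr10 at 96.8 and 72.0 CPM (-0.43) and Cox6a1 at 136 and 101 CPM (-0.43). The mitochondrial median was -0.09 (interval -0.24 to 0.06), with mt-Co1 higher, at 4249 and 4773 CPM (0.17), and mt-Atp8 lower (-0.54).

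T cells had a nuclear median of -0.14 (interval -0.24 to -0.04), with 24 of 76 at least 1.2-fold lower, beside 14.8% of all genes, and 6 at least 1.2-fold higher, beside 20.3%. The split between core and accessory complex I subunits was wider than in presumed tumour cells. The accessory subunits had a median of -0.25 with 26 of 29 below 0, beside 44.9% of all genes. The core subunits had a median of 0.10 with 5 of 7 above 0. All core subunits have transcripts of over 737 bp. Among all nuclear subunits in T cells, those up to 737 bp had a median of -0.28 and longer ones -0.03. The part of length in the split was not tested. All 4 complex II subunits were above 0, with a median of 0.22, although the counting intervals of Sdha (-0.02 to 0.68) and Sdhd (-0.04 to 0.65) reached below 0. Sdhb and Sdhc lay nearer 0, at 0.13 and 0.06, and were no clearer. The 10 mitochondrial genes compared had a median of 0.11 (interval -0.09 to 0.36), led by mt-Nd5, at 191 and 306 CPM (0.68), and mt-Cytb, at 2834 and 3642 CPM (0.36). With the nuclear list held to subunits of at least 1000 UMIs in T cells, the nuclear median was -0.015. Whether T cells and presumed tumour cells differ in the mitochondrial ratio was not tested.

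The smaller classes gave the same sign for the nuclear genes in NK cells (median -0.26 over 35 genes), fibroblasts (-0.10 over 63) and dendritic cells (-0.08 over 54), and 0.02 over 33 genes in endothelial cells. The mitochondrial medians went both ways: 0.51 over 8 genes in neutrophils, 0.15 over 9 in NK cells, 0.10 over 9 in fibroblasts, 0.04 over 9 in dendritic cells and -0.28 over 9 in endothelial cells. These classes held few cells, 38 and 61 for the endothelial cells, and the neutrophils had medians of 826 and 612 UMIs per cell. The median mitochondrial share per neutrophil was 0.909% in the control and 0.864% in the SG-free library, so it did not rise with the summed levels. B and plasma cells gave medians of -0.16 (nuclear) and -0.04 (mitochondrial) over 9 genes each, from 20 control cells, and neutrophils had 1 nuclear subunit to compare. The mitochondrial medians of these 6 classes each turned sign under at least 1 other setting, to -0.044 in neutrophils, -0.006 in NK cells, -0.086 in fibroblasts, -0.053 in dendritic cells, 0.028 in endothelial cells and 0.083 in B and plasma cells. The nuclear medians did so in B and plasma cells (0.38), fibroblasts (0.43) and endothelial cells (-0.25), and reached 0.00 in dendritic cells.

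**Figure D2:**
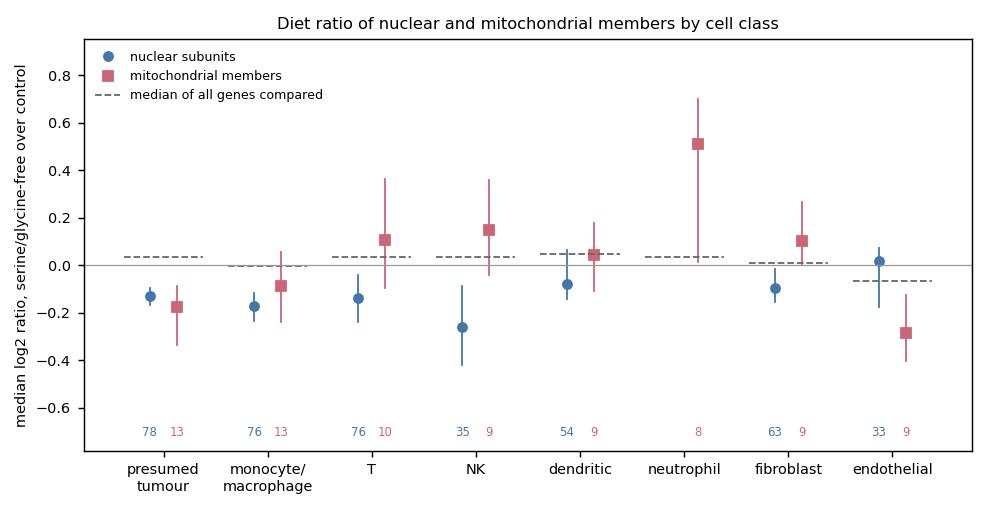
Median log2 ratio (y, SG-free over control) of the nuclear subunits (circles) and mitochondrial members (squares) in the cell classes (x) with at least 5 genes compared, B and plasma cells not drawn, with order-statistic 95% intervals over the members; small numbers at the bottom give the genes compared, dashed lines the median of all genes in the class. Nuclear medians lie between -0.08 and -0.26 in 6 of the classes drawn and at 0.02 in endothelial cells, while mitochondrial medians run from -0.28 in endothelial cells to 0.51 in neutrophils.

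Across presumed tumour cells, macrophages and T cells, 6 of 76 nuclear subunits were at least 1.2-fold lower in all 3 classes, beside 1.16% of 5330 genes compared in all 3. They were the accessory complex I subunits Ndufa7, Ndufb6 and Ndufs6, together with Uqcrq, Cox6a1 and Atp5g1. Below 0 in all 3 classes were 47 of the 76, beside 15.9% of genes. Above 0 in all 3 classes were 6: Atp5c1, Atp5f1, Sdhd, Uqcrfs1, Ndufv2 and Cox7a2l. The share of all genes above 0 in all 3 classes was not counted. These 6 subunits have transcripts of 1102.5 to 1604 bp. Of the 6 subunits at least 1.2-fold lower, Atp5g1 has 2675.5 bp and the others 504 to 571 bp, so the 2 sets also differ in length. The 3 classes come from the same 2 libraries and share their free RNA and preparation, so they are not independent repeats of the diet comparison.

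The bases upstream of 4 of these genes are shown because their ratios had 1 sign in all 3 classes. Cox6a1 and Ndufb6 were at least 1.2-fold lower in each class, whereas Sdhd and Uqcrfs1 had only to be above 0. Sdhd lay at 0.01 in macrophages, and its counting interval in T cells reached below 0. In presumed tumour cells of under 5000 UMIs Sdhd was below 0. The sequences are from RefSeq on the build GRCm38.p6 and read 5′ to 3′ on the gene's strand up to the annotated start; for Uqcrfs1 the bases that the GENCODE annotation places in the gene were left off, whereas the last 23 bases of the Cox6a1 window lie inside its GENCODE gene and hold the ETS match. Capitals mark letters matching motifs described for regulators of respiratory genes and of hypoxia, namely GCGCNTGCG (NRF1), CCGGAAG (ETS factors such as GABPA), AANATGGCG (YY1) and ACGTG (hypoxia-inducible factors). Both strands were searched, each motif on its own, so that matches could overlap.
Cox6a1, chr5:115348959-115349208, strand -: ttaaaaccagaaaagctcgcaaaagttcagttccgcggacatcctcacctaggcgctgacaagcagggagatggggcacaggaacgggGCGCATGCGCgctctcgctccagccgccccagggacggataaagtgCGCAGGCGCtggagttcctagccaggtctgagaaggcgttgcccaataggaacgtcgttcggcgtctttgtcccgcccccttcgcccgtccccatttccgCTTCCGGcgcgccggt
Ndufb6, chr4:40279422-40279671, strand -: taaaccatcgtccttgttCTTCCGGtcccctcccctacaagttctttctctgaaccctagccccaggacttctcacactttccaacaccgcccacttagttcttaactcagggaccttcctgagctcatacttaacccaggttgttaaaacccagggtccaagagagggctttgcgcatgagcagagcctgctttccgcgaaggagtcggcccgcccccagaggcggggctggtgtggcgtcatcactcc
Sdhd, chr9:50603850-50604099, strand -: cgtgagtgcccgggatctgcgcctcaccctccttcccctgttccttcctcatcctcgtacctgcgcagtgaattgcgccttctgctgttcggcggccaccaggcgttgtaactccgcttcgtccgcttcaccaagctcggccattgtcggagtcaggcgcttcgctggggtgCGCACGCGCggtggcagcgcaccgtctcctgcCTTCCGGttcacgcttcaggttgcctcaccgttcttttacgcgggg
Uqcrfs1, chr13:30545363-30545566, strand -: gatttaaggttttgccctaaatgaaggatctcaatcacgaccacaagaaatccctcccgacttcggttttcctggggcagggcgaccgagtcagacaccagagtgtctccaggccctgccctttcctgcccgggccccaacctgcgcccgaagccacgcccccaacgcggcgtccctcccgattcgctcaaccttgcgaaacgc
The Cox6a1 window holds 3 matches to the NRF1 letters, 2 of them overlapping on opposite strands, and 1 to the ETS letters, the Ndufb6 window 1 ETS match, the Sdhd window 1 of each, and the Uqcrfs1 window none of the 4 motifs. The NRF1 or ETS matches thus occurred on both sides of the diet difference. Of the 6 genes lower in all 3 classes 5 had a window, and 3 of these held the NRF1 or ETS letters. Of the 6 above 0 in all 3 classes 5 had a window, and 2 of these did. The ACGTG letters were in 2 of the 5 lower genes with a window, Atp5g1 and Ndufa7, and in 0 of the 5 above 0. Among these genes the YY1 letters were in Ndufa7 alone. With so few genes these differences were not tested. In 65 of the 80 nuclear subunits a window was matched, with 70 windows in all. The NRF1 letters were in 25.7% of them beside 5.19% of 32851 windows of the same 250 bases over all genes, the ETS letters in 17.1% beside 6.91%, the YY1 letters in 4.29% beside 1.12%, and the ACGTG letters in 18.6% beside 16.6%. A match describes letters and not a bound site.

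Genes with the shortest transcripts had lower diet ratios in these libraries, among respiratory chain genes and among all genes. Subunit genes are short: 38 of the 78 in presumed tumour cells had a median annotated transcript of at most 737 bp. Those 38 had a median log2 ratio of -0.18, and the 40 longer ones -0.06. Among all genes, those up to 737 bp had a median of -0.09 and longer ones 0.04. In macrophages the shorter and longer subunits had medians of -0.21 and -0.11, beside -0.20 and 0.00 for all genes, and in T cells -0.28 and -0.03, beside -0.19 and 0.04. Cytosolic ribosomal protein genes, which are also short, had medians of -0.20, -0.21 and -0.24 in the 3 classes. Centred on genes of similar transcript length, which include the subunits, the medians of the subunits were -0.11 in presumed tumour cells and -0.086 in macrophages. The part of length in the result was not tested further.

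**Figure D3:**
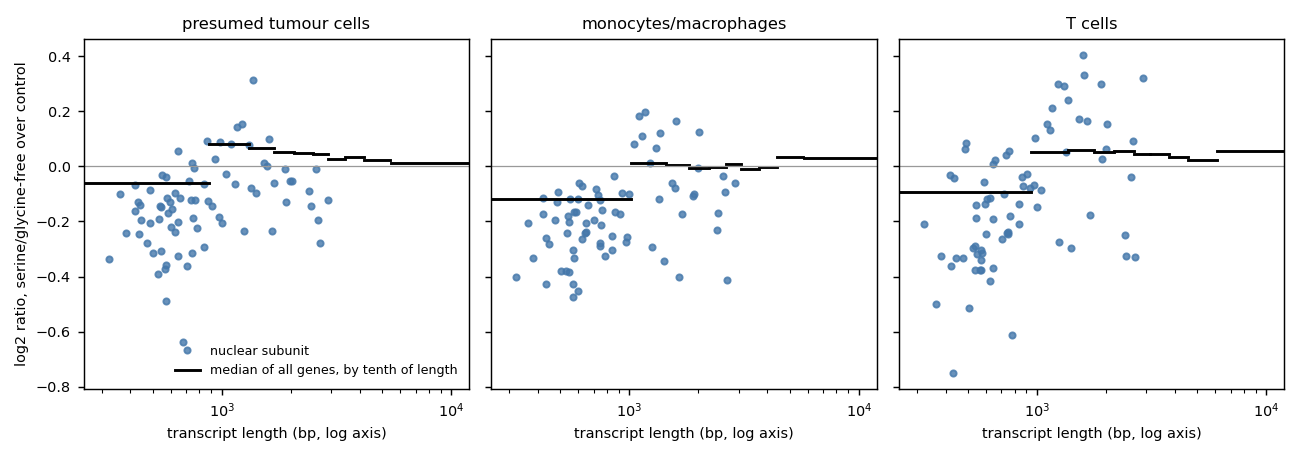
Log2 ratio of diets (y) of each nuclear subunit against its annotated transcript length (x, log axis, bp) in 3 cell classes; black bars are medians of all genes in each of 10 length groups of equal size. Short subunits lie mostly below 0, and the group of the shortest genes lies below 0 in each class too.

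Neutrophils had the lowest share of both genomes' members. The median mitochondrial share per cell was 4.50% and 4.05% of UMIs in presumed tumour cells (control and SG-free), 3.54% and 3.34% in macrophages, 2.95% and 3.22% in T cells, and 0.909% and 0.864% in neutrophils. The nuclear subunits took 1.37% and 1.28% in presumed tumour cells, 1.38% and 1.26% in macrophages, 1.22% and 1.15% in T cells, and 0.378% and 0.384% in neutrophils. B and plasma cells combined a mitochondrial share like that of tumour cells (4.68% and 4.37%) with a low nuclear share (0.789% and 0.827%), but the control class held 20 cells.

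**Figure D4:**
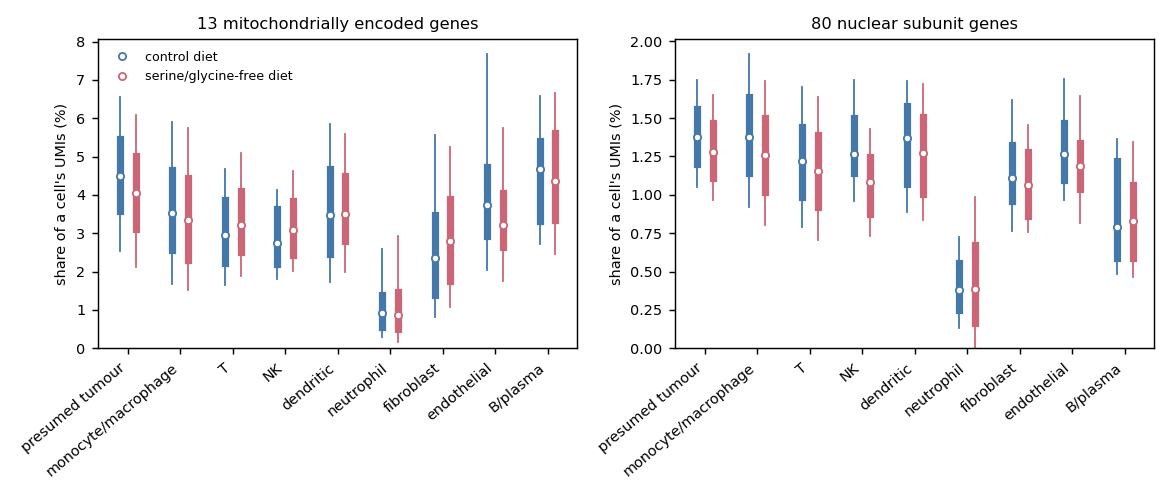
Share of each cell's UMIs (y, %) from the 13 mitochondrial genes (left) and the 80 nuclear subunits (right) by cell class (x) and diet (colour); circles are medians, thick bars span the middle 50% and thin bars the 10th to 90th percentile of cells. Neutrophils are lowest in both panels, and B and plasma cells are high on the left and low on the right.

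Against presumed tumour cells of the same library, the 76 nuclear subunits of macrophages had medians of 0.14 (control) and 0.08 (SG-free). This small excess depended on the total: with mitochondrial and ribosomal protein genes left out, the medians were -0.029 and -0.071. In both libraries 21 subunits were at least 1.2-fold higher in macrophages and 11 lower, beside 35.2% and 36.2% of all genes, so fewer subunits than genes at large passed that size. Complex II had a median of 0.41 in each library and 3 of 4 subunits at least 1.2-fold higher in both. Sdhb was at 172 CPM against 124 CPM in the control and 186 against 119 CPM in the SG-free library (log2 ratios 0.47 and 0.64), Sdhd at 0.56 and 0.41, and Sdhc at 0.35 and 0.40. Sdha, the catalytic subunit, was at 0.11 and 0.17. The largest differences in macrophages were Ndufv3, a small subunit of the NADH-oxidising module, at 73.2 CPM against 32.9 CPM in the control and 63.5 against 34.2 CPM (1.15 and 0.89), and Ndufc1 (0.98 and 0.88). The assembly factor Ndufaf2 was lower, at -1.22 and -1.24.

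T cells had nuclear medians of -0.09 and -0.08 against presumed tumour cells, while the median of all genes was 0.31 and 0.30. With the median of all genes set to 0 they were -0.40 and -0.37, and with members of at least 1000 UMIs they turned to 0.062 and 0.054, so the direction of this small difference depended on the setting. In both libraries 20 of 76 subunits were at least 1.2-fold lower, beside 22.9% of genes, and 12 higher, beside 47.2%. Ndufv3 (1.04 and 0.79) and Atp5e, the epsilon subunit of ATP synthase (0.86 and 0.66), were higher as subunits, and the assembly factor Ndufaf3 was at 1.01 and 0.92. Lower in both were Ndufb9 (-0.91 and -0.82) and Uqcrb (-0.75 and -0.85).

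The mitochondrial genes did not move in step between classes. In macrophages their median against presumed tumour cells was -0.13 and -0.07 (-0.61 and -0.30 in cells of under 5000 UMIs), yet mt-Cytb was at 3884 CPM against 6922 CPM in the control and 3945 against 6735 CPM in the SG-free library (-0.83 and -0.77). In T cells mt-Cytb was at -1.29 and -0.89, in dendritic cells at -1.22 and -1.01, and in fibroblasts at -0.86 and -0.62. It was the lowest of the mitochondrial genes compared in macrophages, T cells and dendritic cells, and in fibroblasts mt-Nd2 was lower still (-0.90 and -0.78). All 9 mitochondrial genes compared in fibroblasts were at least 1.2-fold lower in both libraries, beside 26.6% of genes, as were all 8 in neutrophils, beside 30.6%. The 20% limit on mitochondrial UMIs truncates cells with the highest levels of these genes in every class. Fibroblast-gated cells held 395 and 293 CPM and neutrophils 303 and 327 CPM of Hmga2 and Rhox5, the highest of the classes outside the tumour, and the part of tumour RNA in their levels was not tested.

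Some paralogous subunits marked particular classes. Cox6a2 was at 93.1 and 68.4 CPM in dendritic cells, against 9.04 and 5.81 CPM in presumed tumour cells and 0.888 and 0.799 CPM in T cells. Within dendritic cells all of its UMIs, 57 and 44, lay in the 35 and 64 cells with a UMI of Siglech, a plasmacytoid dendritic cell receptor, at 557 CPM (interval 422 to 721) and 270 CPM (196 to 362). This split was chosen after the values were seen. Ndufa4l2 was at 259 and 307 CPM in fibroblasts, where 46 of 98 and 44 of 146 cells held it, and at 2.31 and 3.28 CPM in macrophages, against 12.7 and 8.01 CPM in presumed tumour cells. Cox4i2, the isoform of Cox4i1 induced by low oxygen, was at 5.17 and 5.99 CPM in macrophages and 6.78 and 7.97 CPM in fibroblasts (6 and 7 UMIs), against 0.204 and 0.267 CPM in presumed tumour cells. Cox6b2, the testis isoform of Cox6b1, had 3 and 4 UMIs in all presumed tumour cells and 18 and 9 in macrophages and 7 and 4 in T cells. Cox7a1, the muscle isoform, was at 2.25 and 2.05 CPM in presumed tumour cells and 3.40 and 3.57 CPM in macrophages (25 UMIs in each library), so it did not mark the presumed tumour cells.

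Within presumed tumour cells, those with a high level of 7 hypoxia-induced genes (500 CPM or more in the cell, none a respiratory chain gene) made up 13.5% of control and 26.4% of SG-free cells. This is a range cut from a score and not a cell type, with 872 and 1343 cells near the limit. In the 11 hypoxia genes compared, all were higher under the SG-free diet in presumed tumour cells, with a median log2 ratio of 0.75. Over all genes the median was 0.04, and 43.3% were below 0. The ratios ran from 0.14 for Vegfa to 1.24 for Ddit4. Ndrg1, Bnip3, Ankrd37, Car9, Selenbp1 and Pdk1 also set the hypoxia limit, so this is not independent of the larger share of SG-free cells past it. The glycolytic enzyme Pgk1 was at 690 and 1161 CPM, and Ddit4, an inhibitor of mTORC1 induced by hypoxia and by amino acid loss, at 9.13 and 21.6 CPM.

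Hypoxia-gated cells had less of nearly every nuclear subunit than the other tumour cells, alike in both libraries. The nuclear median was -0.17 in the control and -0.20 in the SG-free library, beside -0.05 and -0.08 over all genes, with 71 of 78 subunits below 0 in each. The share of all genes below 0 was not counted here, and their medians were below 0 too. At least 1.2-fold lower were 20 and 22 of the 78 subunits, a share near the 23.6% and 23.8% of all genes, so again many genes were lower by a small amount. All 17 complex V subunits were below 0 in both libraries. Ndufv3 alone was at least 1.2-fold higher, beside 13.5% and 10.1% of all genes, at 47.1 CPM against 31.0 CPM in the control and 44.7 against 30.9 CPM in the SG-free library (0.60 and 0.53). Among mitochondrial genes, mt-Nd1 was lower (-0.60 and -0.61) and mt-Co1 higher (0.29 and 0.24). In the cells with least to most of the hypoxia genes, mt-Nd1 ran from 3249 to 1470 CPM in the control and from 3247 to 1594 CPM in the SG-free library, while mt-Co1 ran from 4283 to 6041 CPM and from 3936 to 5209 CPM. Median depth ran from 13504.5 to 10665 and from 10374.5 to 7993 UMIs over the same cells.

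Ndufa4l2 and its paralog Ndufa4 went opposite ways along this range, and across diets Ndufa4l2 was lower while the hypoxia genes were higher. Ndufa4l2 is a target of hypoxia-inducible factor 1 that lowers complex I activity when induced. Hypoxia-gated cells held 51.7 CPM of Ndufa4l2 against 7.52 CPM in other tumour cells of the control library, and 20.6 against 3.96 CPM in the SG-free library (2.78 and 2.38). Ndufa4 was lower in the range, at 79.6 against 113 CPM and 67.1 against 87.2 CPM (-0.51 and -0.38). More cells of the SG-free library passed the hypoxia limit, and they held less Ndufa4l2: the log2 diet ratio was -1.33 (interval -1.47 to -1.18) inside the range and -0.93 (-1.10 to -0.76) outside it. Among mitosis-gated cells it was -0.16 (-0.35 to 0.03). At 1000 CPM or more of the hypoxia genes, Ndufa4l2 was at 82.3 CPM (74.5 to 90.7) in 435 control cells and 29.4 CPM (26.7 to 32.4) in 1543 SG-free cells, while Slc2a1, a glucose transporter of the same pathway, was at 131 and 147 CPM. The control UMIs of Ndufa4l2 lay in 833 presumed tumour cells with at most 18 in 1 cell, and the others in 600 cells with at most 12. The gene spans chr10:127514967-127517154 on the plus strand of GRCm38.

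**Figure D5:**
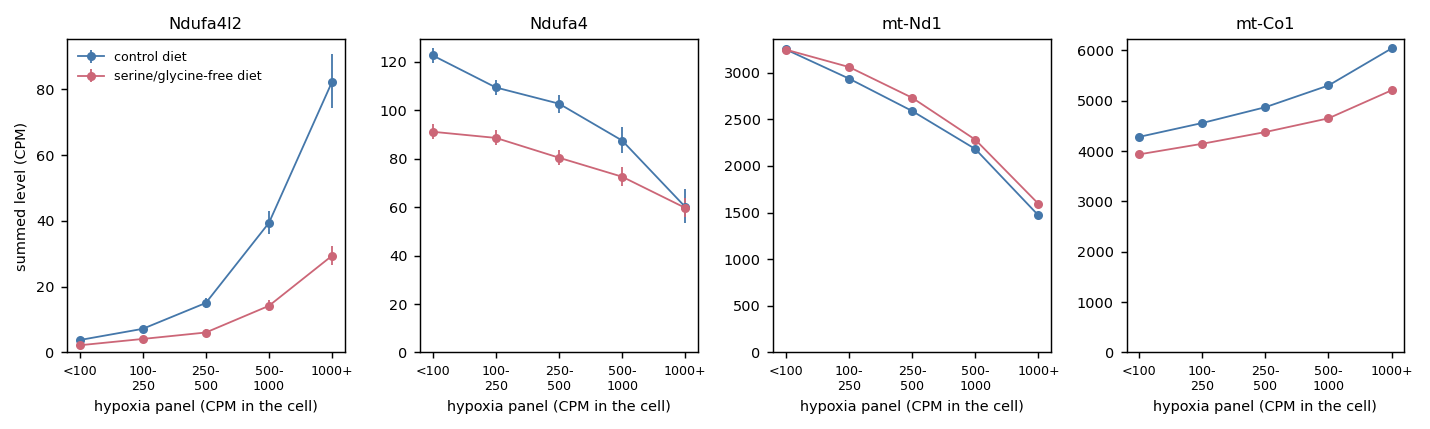
Level of 4 members (y, CPM summed over cells, each panel with its own scale from 0) in presumed tumour cells grouped by the level of the 7 hypoxia genes in the cell (x), for each diet (colour), with 95% counting intervals. Ndufa4l2 and mt-Co1 go up along the axis while Ndufa4 and mt-Nd1 go down, and Ndufa4l2 is lower in the SG-free library in each group.

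The diet difference of the nuclear subunits was present outside these ranges too: the median was -0.11 without hypoxia-gated cells and -0.12 without cells expressing at least 3 of 8 mitosis genes, which made up 36.7% and 43.9%. Inside the mitosis range it was -0.13. Mitosis-gated cells themselves had nuclear medians of -0.10 in both libraries against the other tumour cells, with 8 and 9 of 78 subunits at least 1.2-fold lower beside 24.8% and 24.2% of all genes, and mitochondrial medians of -0.16 and -0.21.

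Most other mitochondrial lists had medians near 0 in presumed tumour cells. The 14 TCA cycle genes had a median log2 ratio of -0.05 with none past 1.2-fold, and the 78 mitochondrial ribosome genes -0.05 with 2 lower. Among all genes 11.1% were lower by that size. Cytochrome c (Cycs) and 15 complex IV assembly genes had a median of -0.14, close to that of the nuclear subunits, with Coa3 at 96.0 and 75.4 CPM (-0.35) and Cox20 at 27.6 and 22.1 CPM (-0.32) past 1.2-fold. The 12 genes for mitochondrial DNA expression had a median of -0.06 with none past it, and Tfam, the main packaging and transcription factor, was at 36.3 and 35.2 CPM. Of 8 regulators of respiratory genes, Myc alone passed 1.2-fold, at 44.2 and 53.8 CPM (0.28), beside 17.3% of all genes higher by that size. Nrf1 was at 66.5 and 63.8 CPM, Gabpa at 31.3 and 35.7 CPM, and Ppargc1a, which drives mitochondrial biogenesis, at 3.46 and 3.56 CPM.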

How the data were processed

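Raw UMI counts per gene and cell barcode were deposited by the authors. The file headers name Cell Ranger 7.0.1, the submitters' processing notes Cell Ranger 2.2.2 and the mm10 genome. The sources used here do not say how intronic reads were handled. The kit was 10x Genomics 3', per the labels. Such counts follow transcript 3' ends and are not scaled by length, so levels are compared within a gene.

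Cell barcodes under 500 UMIs or 300 genes, or over 20% mitochondrial UMIs, were removed. No doublet caller was run: cells passing more than 1 marker panel were left out, and doublets of 1 class remain. A panel was passed with at least 3 of its genes and 1000 CPM, and the presumed tumour limit was 1000 CPM and 3 UMIs of Hmga2 and Rhox5. UMIs were summed per class and library and divided by all UMIs of the class. Genes with at least 100 UMIs over both libraries in a class were compared. Levels have exact Poisson intervals and log2 ratios exact conditional binomial (Clopper-Pearson) intervals at 95%. List medians have order-statistic intervals over members. A difference of 1.2-fold was counted, beside its share among all genes. The functions were tested on simulated counts.

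The genes named are, by rule, the 2 highest and 2 lowest nuclear subunits per complex in presumed tumour cells, all mitochondrial and Sdh members, isoform sets, and the 3 extremes per class comparison; others were named after their values were seen, as were the hypoxia-level groups, splits within classes and motif letters. Members and lists were chosen with earlier results of these data known. Gene positions and lengths come from GENCODE M21 on GRCm38 and promoter windows from RefSeq on GRCm38.p6. Python 3.11.15, numpy 2.4.6, scipy 1.17.1, pandas 2.3.3 and matplotlib 3.10.9 were used. There were 18 alternatives, 3 of them chosen after seeing the data.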

Additional observations from a re-analysis of the deposited data

Results flagged for a closer look

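The mitochondrial members had medians of opposite sign across diets in different cell classes. The median log2 ratio, serine/glycine-free over control, was 0.51 over 8 genes in neutrophils and 0.10 over 9 genes in fibroblasts. Their lower interval bounds were just above 0, at 0.013 and 0.003. These ratios use summed UMIs: the median mitochondrial share per neutrophil was 0.909% in the control and 0.864% in the SG-free library, the other way. It was -0.18 over 13 genes in presumed tumour cells and -0.28 over 9 genes in endothelial cells, with interval bounds below 0. The medians of neutrophils, fibroblasts and endothelial cells each turned sign under at least 1 other setting. With 1 library per diet the difference between classes was not tested.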

How the results depend on the processing

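Of the values of the list results under alternatives, 198 stayed within the interval over members, or within 1.5 times for counts, 20 moved and 2 reversed. Those within the interval include sign changes of the T cell nuclear medians against tumour cells, to 0.062 in the control and 0.054 in the SG-free library for members of at least 1000 UMIs, and in the latter to 0.0026 in cells of at least 2000 UMIs and 0.024 without cells of 5000 UMIs or more. With mitochondrial and ribosomal protein genes left out of the total, the macrophage nuclear medians reversed to -0.029 and -0.071, the tumour nuclear median was -0.17 and the macrophage mitochondrial median -0.23 in the SG-free library. With the median of all genes at 0, T cell nuclear medians against tumour cells were -0.40 and -0.37 and the mitochondrial one -0.47. Members with at least 1000 UMIs gave a T cell nuclear diet median of -0.015, and those with at least 20 gave 2 tumour subunits 1.2-fold higher. The next 3 alternatives were chosen after seeing the data. Centring on transcript length gave -0.086 in macrophages and 0 subunits higher in tumour cells; centring on gene span gave -0.18, 23 lower and 0 higher in tumour cells. Without cells of 5000 UMIs or more the tumour medians were -0.24 (nuclear) and -0.35 (mitochondrial), with 33 lower and 3 higher, and the mitochondrial medians against tumour cells were -0.83 and -0.48 in T cells and -0.61 and -0.30 in macrophages. In smaller classes, mitochondrial diet medians reversed to 0.028 (endothelial) and -0.044 (neutrophil) in cells without Hmga2 or Rhox5 UMIs, -0.027 (neutrophil) at 10% mitochondrial UMIs, -0.026 (fibroblast) with mixed cells assigned, and -0.086 (fibroblast) without cells of 5000 UMIs or more, where the fibroblast nuclear median was 0.43. The causes were not tested. No paired analysis was possible because each diet had 1 library.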
